A study of Homo sapiens with 6 samples.

Results

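The tripartite motif (TRIM) family is a large group of proteins built from a RING finger, 1 or more B-boxes and a coiled coil, most of which act as ubiquitin ligases. The members examined here were the autosomal protein-coding genes of the deposited table whose symbol is TRIM followed by a number, with or without a letter suffix. The rule matched 73 of 58302 gene rows, and 44 of the 73 reached at least 1 CPM (a read count scaled to the size of its library) in 3 or more of 6 libraries. The libraries were made from A549, a human lung adenocarcinoma line grown in serum-containing medium, after transfection with the long non-coding RNA SNHG5 (3 biological replicates, labelled overexpression) or with vector (3 biological replicates, labelled control). No untransfected library was analysed here.

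In a TRIM ligase the RING finger recruits a ubiquitin-conjugating enzyme, the coiled coil joins 2 molecules, and the carboxy-terminal domain picks the target. Many members with a SPRY domain at that end are induced by interferon and restrict viruses, either by binding viral components or by modifying the sensors and adaptors of innate immunity. Others sit on chromatin, on microtubules, in membranes or in muscle. Interferon-stimulated genes are switched on when the complex ISGF3 binds the interferon-stimulated response element (ISRE) in their promoters.

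The core of the ISRE, written TTTC, any 2 bases and TTTC again, was therefore looked for on both strands in the RefSeq promoter windows of the members (build GRCh38.p14), which run from 250 bases before to 50 bases after a gene's start. Of the 44 genes, 32 had an entry, among them 9 of the 10 on a list of interferon-induced TRIM genes (TRIM5, TRIM14, TRIM21, TRIM22, TRIM25, TRIM26, TRIM34, TRIM38, TRIM56 and TRIM69). TRIM22 was the listed gene with no entry. The stretches with a match in the listed genes are shown because these genes carry the differences described below, 30 bases each, 5′ to 3′ on the strand of the gene, with the matches in capitals:
TRIM5: atagtttatcTTTCACTTTCctgccctgag
TRIM34: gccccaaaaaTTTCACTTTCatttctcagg
TRIM14: acggccgaggTTTCGGTTTCccttgggagc
TRIM69: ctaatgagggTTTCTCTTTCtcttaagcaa
TRIM26: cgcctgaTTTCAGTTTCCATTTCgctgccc
TRIM21: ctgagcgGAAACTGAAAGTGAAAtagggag

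TRIM5 and TRIM34, neighbours on chromosome 11, share the core TTTCACTTTC. The TRIM26 and TRIM21 stretches each hold 2 overlapping matches, and those of TRIM21 lie on the opposite strand. Positions are counted from the RefSeq transcript start of each window, with bases before it negative. For TRIM5, TRIM34 and TRIM69 that start lies inside the longer gene span of GENCODE 29, not at its end. By this count the match begins at -27 in TRIM5 (chr11:5685082-5685111, minus strand), -90 in TRIM34 (chr11:5624901-5624930, plus strand) and -26 in TRIM14 (chr9:98119229-98119258, minus strand). It begins at -62 in TRIM69 (chr15:44736456-44736485, plus strand) and at -194 in TRIM26 (chr6:30213578-30213607, minus strand). In TRIM21 (chr11:4393663-4393692, minus strand) it lies at bases 18 to 33 of the transcript. Thus 6 of the 9 listed genes with an entry held the core, against 3 of 23 other TRIM genes (TRIM2, TRIM16 and TRIM44) and 4.38% of all 27305 genes with an entry. The listed genes TRIM25, TRIM38 and TRIM56 had an entry but no match to the core. Counted per window, 3.57% of 35116 windows held it. The gamma-activated site TTCNNNGAA, which reads the same on both strands, matched in 0 of the 9 listed genes, in 5 of the 23 others and in 9.38% of all genes. A match describes the letters of these windows and does not show binding. The list and the motifs were chosen with earlier results of these data known, so these shares are not a test.

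Library totals ran from 13378079 to 16999604 counts. SNHG5 itself stood at 153.3, 126.5 and 62.9 CPM in the libraries labelled overexpression 1, 2 and 3. Controls 1, 2 and 3 held 61.0, 101.3 and 55.1 CPM of it, so that overexpression 3 lay within the range of the controls. Keratins 7, 8, 18 and 19 and EPCAM, which mark lung epithelial cells, were detected in every library. PTPRC, which marks leukocytes, and CD3E, which marks T cells, had no count in any. CD14 and CD79A, also on the leukocyte list, reached at most 1.72 and 0.27 CPM in a library. The 4 leukocyte markers summed to at most 1.9 CPM in any overexpression library and at most 1.82 CPM in any control. Genes annotated as ribosomal RNA, including mitochondrial ribosomal RNA and ribosomal RNA pseudogenes, took 1.04% to 1.14% of counts in the overexpression libraries. They took 0.8% to 0.85% in the controls, so this share divided the groups in the same way as the gene differences given below. Its part in them was not tested. Control 2 differed from the other 5 libraries in its nuclear RNA, with NEAT1 at 24.1 CPM against at least 104.1 CPM.

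Of the 29 TRIM genes below the level rule, 22 had no count in any library. The genes without a count included TRIM49, TRIM51, TRIM64 and the near copies TRIM49B, TRIM49C, TRIM64B and TRIM64C. They also included TRIM63 and TRIM72, which belong to striated muscle. How reads shared between near copies were counted is not known. The nearest genes to the rule were TRIM2, just inside with 0.781 to 1.869 CPM on plain library totals, and TRIM31, just outside with 0 to 2.568 CPM. All of the 44 genes reached 1 CPM in at least 1 library of each group.

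Levels of different genes were compared as CPM per kilobase of merged exons. TRIM28, the corepressor that KRAB zinc finger proteins recruit to silence chromatin, was first at 104 ± 19.4 CPM per kilobase (SD over the 6 libraries). TRIM21, a cytosolic antibody receptor, came second at 86.6 ± 42.7, followed by TRIM25, which ubiquitinates the RNA sensor RIG-I, at 46.4 ± 16.5 and TRIM14, an adaptor of antiviral signalling, at 45.5 ± 22.3. The order of the first 2 held in one group only. In the overexpression libraries TRIM28 stood at 79.6, 83.6 and 103 CPM per kilobase and TRIM21 at 46.0, 34.7 and 65.7, with no overlap. In the controls TRIM28 stood at 122, 110 and 127 and TRIM21 at 123, 123 and 127 CPM per kilobase, and the genes could not be ordered. TRIM16L, a short paralogue of TRIM16, ranked 5 at 31.4 ± 13.7 CPM per kilobase, although reads of the near-identical TRIM16 and TRIM16L may have been assigned to either. The lowest levels per kilobase were those of TRIM45, TRIM67 and TRIM2 (0.443, 0.164 and 0.137).

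**Figure D1:**
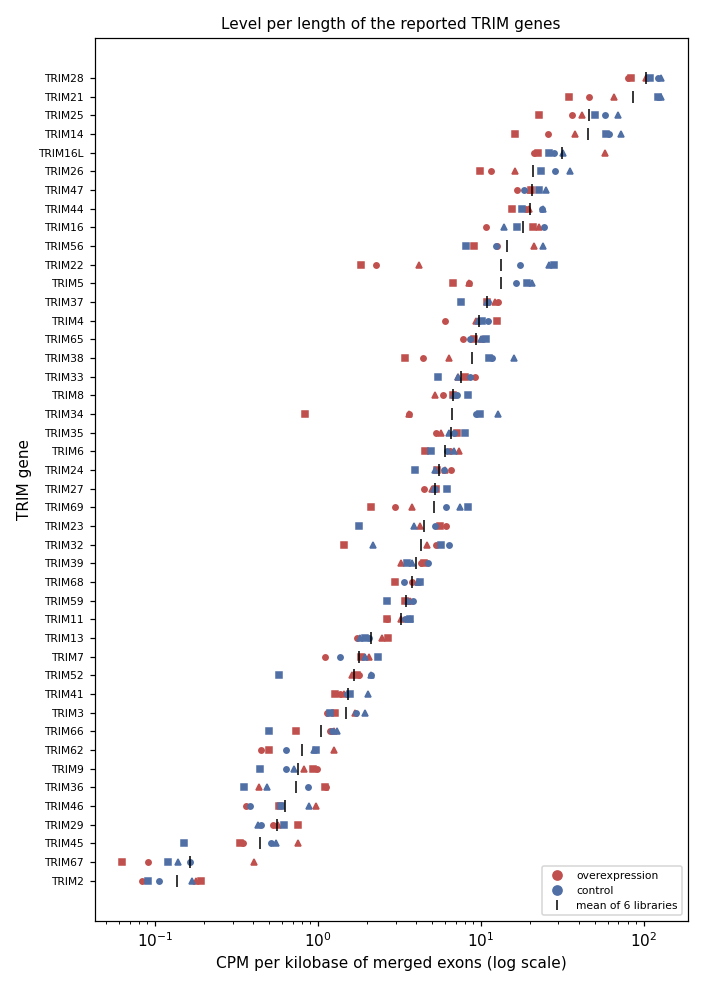
Level of each of the 44 TRIM genes in CPM per kilobase of merged exons on a log axis, with circles, squares and triangles for replicates 1, 2 and 3, coloured by group, and a bar at the mean of 6 libraries. TRIM28 and TRIM21 lead at 104 and 86.6, and the overexpression libraries of TRIM22 (1.83 to 4.19) lie apart from its controls (17.5 to 28.1).

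The list of interferon-induced TRIM genes was chosen with earlier results of these data known. Its shares, and those of the 34 other TRIM genes, are therefore descriptions and not tests. Among the interferon-induced TRIM genes, all 10 had a lower fitted level in the libraries labelled overexpression, against 49.3% of all 15631 genes tested. The list's median log2 fold change was -1.29, while the median over all genes was 0.007. In 9 of the 10 every overexpression library lay below every control (background 7.52%), and 8 of the 10 had a log2 fold change of -1 or lower (background 3.03%). None was at 1 or higher (background 1.53%). At an unadjusted edgeR p under 0.05, 9 of the 10 were lower (background 4.41%) and none higher (background 2.09%), with TRIM56 as the exception. After adjustment over all genes 1 of the 10, TRIM22, passed in edgeR's quasi-likelihood test (background 0.102% lower), and 2 of the 10, TRIM22 and TRIM38, passed with the replicate number as a block (background 0.441%). RNA from bulk cultures does not tell fewer cells that express a gene from less RNA per cell.

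The list's libraries did not overlap between the groups. As deviations from each gene's mean log2 CPM, the overexpression libraries 1, 2 and 3 had list medians of -0.63, -1.13 and -0.25. Controls 1, 2 and 3 had list medians of 0.60, 0.61 and 0.85. Overexpression 2 was the lowest and overexpression 3 lay nearest the controls. Within the group SNHG5 was least in overexpression 3 (62.9 CPM) but most in overexpression 1 (153.3 CPM), not in overexpression 2 (126.5 CPM). Control 2 held more of it (101.3 CPM) than overexpression 3, and a relation to SNHG5 was not tested. Between same-numbered libraries the median difference was -1.28, -1.77 and -1.06 on the log2 scale. Leaving out overexpression 3 gave a list median of -1.57, and TRIM5, TRIM21, TRIM22, TRIM38 and TRIM69 then passed in edgeR (background 0.902%).

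**Figure D2:**
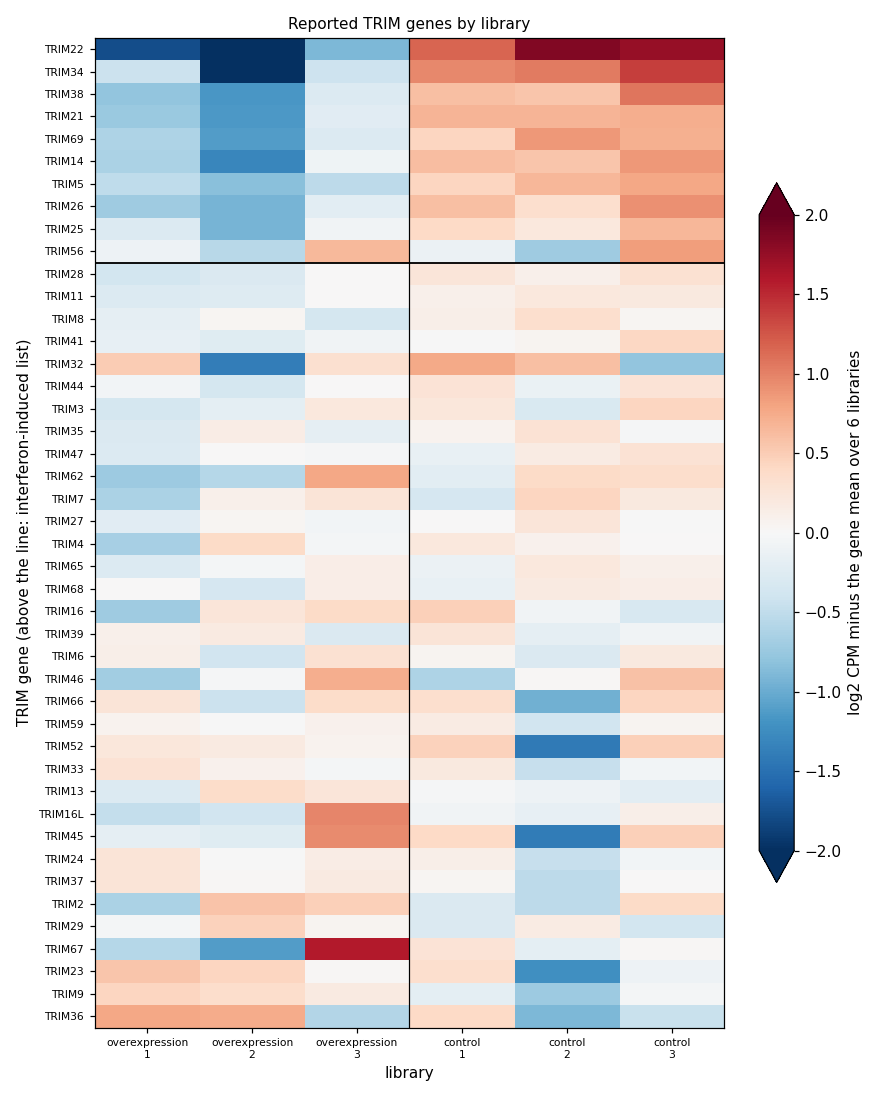
log2 CPM of the 44 TRIM genes (rows) in each library (columns) as the deviation from the gene's own mean, with colours saturated at 2 in either direction and the interferon-induced list above the line. The listed genes other than TRIM56 are low in the overexpression libraries and high in the controls. Below the line the groups stand apart for TRIM8, TRIM9, TRIM11, TRIM28 and TRIM41.

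TRIM22, an interferon-induced ligase that represses viral transcription, showed the largest difference of the family. Overexpression 1, 2 and 3 held 13.8, 11 and 25.2 CPM of it, and controls 1, 2 and 3 held 105.1, 168.9 and 157.8 CPM. The highest overexpression library was thus far below the lowest control. The means were 16.7 ± 7.53 and 144 ± 34.1 CPM (SD, n = 3 each), an 8.63-fold lower level with a log2 fold change of -3.11 (SE 0.36, edgeR adjusted p 0.0327). With DESeq2 the adjusted p was 5.41e-14. Without overexpression 1, overexpression 2, control 2 or control 3 the edgeR adjusted p was 0.262, 0.131, 0.164 and 0.162. These fits called 1, 0, 0 and 0 of all genes lower, so few genes of any kind passed in them, while the log2 fold change stayed between -3.54 and -2.89 over the fits that left out 1 library.

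TRIM22 (ENSG00000132274, chromosome 11, 5689689 to 5737089, plus strand, GRCh38) lies in a row of related genes with TRIM6 (5596109 to 5612958, plus strand) and TRIM34 (5619764 to 5644398, plus strand). The annotated span of TRIM5 (5663557 to 5938619, minus strand) covers TRIM22 entirely, but in GENCODE 29 the 2 genes share no exon base. TRIM5, whose product binds retroviral capsids, stood at 40.8, 32.6 and 40.6 CPM against 78.7, 92.0 and 99.3 CPM in the controls. Its log2 fold change was -1.24 (SE 0.19) with an edgeR adjusted p of 0.0779, the nearest to the threshold among the TRIM genes that missed it.

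TRIM34, a close paralogue of TRIM5, stood at 9.71, 2.26 and 9.78 CPM against 25.3, 26.8 and 34.1 CPM, a log2 fold change of -1.98 (SE 0.50, edgeR adjusted p 0.29). Overexpression 2 was the low value here. TRIM34 shares 2233 exon bases with the read-through gene TRIM6-TRIM34, which held 0, 117 and 117 counts in the overexpression libraries. In the controls it held 153, 181 and 201 counts. With those counts added, an alternative chosen after seeing the data, TRIM34 held 160, 148 and 285 counts against 533, 589 and 754. Its log2 fold change was then -1.70 (SE 0.27, edgeR adjusted p 0.0763), and overexpression 2 no longer stood apart from overexpression 1. TRIM6, which makes ubiquitin chains that activate the kinase IKKε, is the neighbour outside the list. It stood at 25.5, 18.0 and 29.2 CPM against 24.5, 19.4 and 27.1 CPM, with the groups overlapping throughout (log2 fold change 0.03, SE 0.25, or -0.26, SE 0.22, with the read-through counts added).

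The difference between neighbours was also measured as a ratio within each library. The log2 ratio of TRIM22 to TRIM6 counts was -0.89, -0.71 and -0.21 in the libraries labelled overexpression and 2.10, 3.12 and 2.54 in the control libraries. The ratio to TRIM5 was -1.57, -1.57 and -0.69 against 0.42, 0.88 and 0.67. Neither ratio overlapped between the groups, and the differences of -3.19 and -1.93 each had a two-sided exact permutation p of 0.1, the smallest that 3 libraries against 3 allow, and 0.15 adjusted over the 3 ratios computed. With same-numbered libraries kept as pairs, an alternative added after seeing the data, the exact permutation p was 0.25 for each ratio, the smallest that 3 pairs allow. The ratio to TRIM34 overlapped, at 0.50, 2.27 and 1.36 against 2.05, 2.66 and 2.21 (difference -0.93, exact permutation p 0.3). The overlap came from overexpression 2, where TRIM34 held 31 counts and the read-through gene 117. Without that library the difference was -1.37. The ratio was not computed with the read-through counts added. On the scale per kilobase TRIM22 lay below TRIM5 in each overexpression library (1.83 to 4.19 against 6.79 to 8.5) and above it in each same-numbered control (17.5, 28.1 and 26.2 against 16.4, 19.2 and 20.7).

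**Figure D3:**
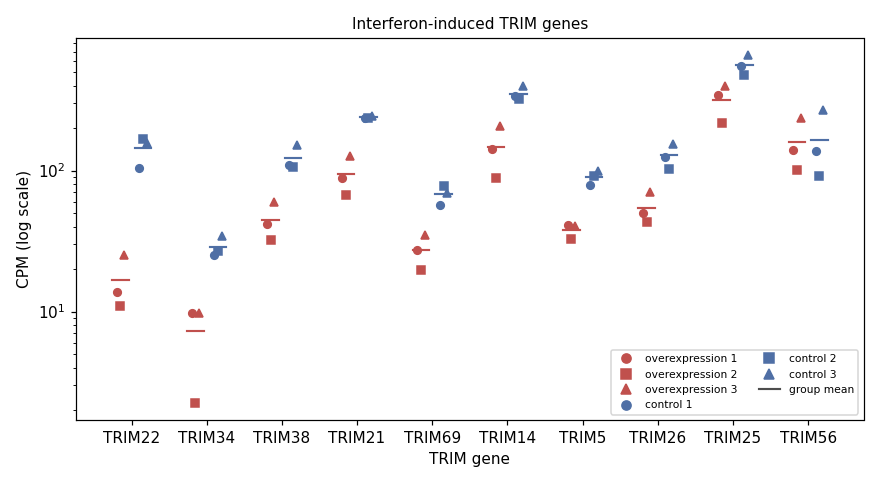
CPM of the 10 interferon-induced TRIM genes on a log axis, with circles, squares and triangles for replicates 1, 2 and 3 of each group and a line at the group mean. For TRIM22 the overexpression libraries span 11 to 25.2 and the controls 105.1 to 168.9, whereas the groups of TRIM56 overlap.

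TRIM38, a regulator of innate immune signalling (chromosome 6, 25962802 to 25991226), stood at 41.7, 32.3 and 59.8 CPM against 109.7, 105.9 and 151.4 CPM. Its log2 fold change was -1.45 (SE 0.28), with an edgeR adjusted p of 0.124 without the block and 0.0416 with it. TRIM21 (chromosome 11, 4384897 to 4393696) stood at 88.7, 66.9 and 126.7 CPM against 237.2, 237.3 and 245.8 CPM, so that its controls were nearly equal and its overexpression libraries spread widely. Its log2 fold change was -1.35 (SE 0.25, edgeR adjusted p 0.121).

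TRIM69, which binds microtubules, stood at 27.5, 19.6 and 35.0 CPM against 57.1, 77.6 and 69.2 CPM (log2 fold change -1.31, SE 0.26). TRIM14, which has no RING finger, stood at 141.3, 88.4 and 207.8 CPM against 336.7, 320.6 and 398.6 CPM (log2 fold change -1.27, SE 0.31). TRIM26, of the major histocompatibility region on chromosome 6, stood at 50.2, 43.2 and 70.8 CPM against 125.0, 103.4 and 155.5 CPM (log2 fold change -1.23, SE 0.25). In each of these the overexpression libraries lay below all controls, and the edgeR adjusted p were 0.13, 0.271 and 0.152.

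TRIM25 was the most abundant of the list in CPM and had the smallest difference among the 9 genes. It stood at 344.0, 216.8 and 395.4 CPM against 548.6, 478.2 and 659.9 CPM, a log2 fold change of -0.82 (SE 0.27, edgeR adjusted p 0.572). TRIM56, an antiviral ligase, did not follow the others. It stood at 139.4, 101.6 and 235.2 CPM against 138.3, 91.0 and 268.3 CPM, so that levels went with the replicate number and not with the group. Its log2 fold change was -0.06 (SE 0.44), and leaving out single libraries gave values from -0.46 to 0.46. DESeq2 called 8 of the 10 genes lower, the list without TRIM25 and TRIM56. Its background of 0.831% is over 28651 genes, a wider set that includes genes too low for edgeR's filter. With limma-voom TRIM22 alone was called, with 20 of all 15631 genes called lower.

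The 34 other TRIM genes were split evenly, 17 with a lower and 17 with a higher fitted level, around a median log2 fold change of 0.01, or -0.19 without overexpression 3. None passed in edgeR without the block (background 0.102% lower and 0.0256% higher) or with it (background 0.441% lower and 0.0256% higher). Without the block 0 had an unadjusted edgeR p under 0.05 (background 4.41% lower and 2.09% higher). With the block TRIM28 had an unadjusted edgeR p of 0.0458 (lower), where 980 of all 15631 genes were lower under 0.05. DESeq2 called 0 of them (background 0.831% lower over its wider set of 28651 genes), as did limma-voom (20 of all 15631 genes lower). The log2 fold changes ran from -0.43 to 0.64, and 31 of the 34 were under 0.5 in size. The groups did not overlap for 4 genes that were lower, TRIM8, TRIM11, TRIM28 and TRIM41, and for 1 that was higher, TRIM9, or 13 and 1 of all 44 genes (background 7.52% and 6.04%).

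**Figure D4:**
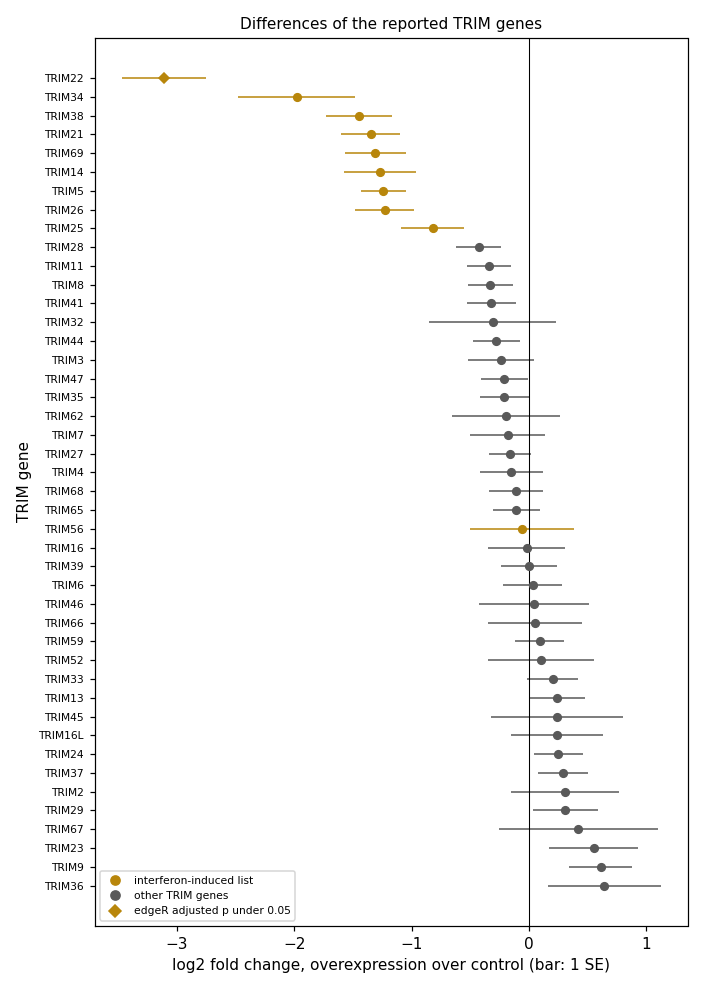
Fitted log2 fold change of each of the 44 TRIM genes, overexpression over control, with bars of 1 SE, the interferon-induced list in gold and a diamond for the gene past an edgeR adjusted p of 0.05. Of the listed genes, 9 lie between -3.11 and -0.82, and the 34 others and TRIM56 lie between -0.43 and 0.64.

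The chromatin-associated members, which carry a PHD finger and a bromodomain, did not share a direction. TRIM28 stood at 321.3, 337.4 and 413.8 CPM against 491.8, 445.4 and 510.8 CPM, a log2 fold change of -0.43 (SE 0.19, edgeR adjusted p 0.746) with no overlap of the groups. TRIM24, a coregulator of nuclear receptors, stood at 60.6, 50 and 55.8 CPM against 54.8, 36.6 and 48.7 CPM (log2 fold change 0.25, SE 0.21). TRIM33, a ligase of the TGF-beta pathway, stood at 87.7, 76.3 and 69.6 CPM against 81.9, 52.3 and 69.0 CPM (log2 fold change 0.20, SE 0.22). For both the groups overlapped and control 2 was the lowest library. TRIM66 had a log2 fold change of 0.05 (SE 0.40) and shares 94 exon bases with the highly expressed RPL27A on the opposite strand, so its counts are uncertain. The same holds for members outside this list. Among them, TRIM59 shares 1561 exon bases with SMC4 and TRIM14 shares 422 with NANS, both on the opposite strand. TRIM16 shares 1327 with AC005324.3 on the same strand.

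The 4 reported COS-box members, which bind microtubules, all had higher fitted levels and no call, at a median of 0.52 on the log2 scale. TRIM9, best known from neurons, stood at 8.86, 8.37 and 7.39 CPM against 5.73, 3.94 and 6.4 CPM, a log2 fold change of 0.61 (SE 0.27, edgeR adjusted p 0.746). TRIM36 had the highest value of the family at 0.64 (SE 0.48), with groups that overlapped. TRIM46 and TRIM67 lay at 0.04 and 0.42, turning to -0.41 and -0.86 without overexpression 3.

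The members with an ARF, MATH or filamin domain (TRIM23, TRIM37 and TRIM45) and the membrane-anchored TRIM13 and TRIM59 also had higher fitted levels, from 0.09 to 0.55. Control 2 weighed on these values. TRIM23 stood at 8.59 CPM there against 25.2 and 18.6 CPM in controls 1 and 3, and the median of its list lay at -1.21 in control 2 and between 0.02 and 0.33 elsewhere. Without control 2, TRIM45 and TRIM59 turned to -0.15 and -0.06. Control 2 was the lowest library for 25.0% of the TRIM genes and for 26.7% of all genes tested.

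Some members varied more between replicates than between groups. TRIM32, a ligase mutated in a limb-girdle muscular dystrophy, had the widest spread within groups, with an SD of 0.94 on the log2 scale. It stood at 20.2, 5.46 and 17.8 CPM against 24.1, 21.7 and 8.25 CPM, so that 1 library of each group was low. TRIM52 stood at 3.80 CPM in control 2 and between 10.6 and 14.0 CPM in the others. TRIM16L stood at 252.4 CPM in overexpression 3 and between 91.6 and 138.6 CPM in the others, and its log2 fold change of 0.24 turned to -0.40 without that library. At the other end, TRIM11 and TRIM27 had SDs of 0.121 and 0.136, and their log2 fold changes were -0.34 (SE 0.19) and -0.16 (SE 0.18).

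Related genes were read from 3 further lists. Of 8 TRIM proteins that go by other names, 5 could be tested. PML, an interferon-induced organizer of nuclear bodies, stood at 30.4, 28.8 and 85.7 CPM against 140.7, 186.7 and 171.8 CPM, a log2 fold change of -1.78 (SE 0.43, edgeR adjusted p 0.259). MID1, RNF135, MID2 and TRIML2 lay between -0.58 and 0.46. Of 14 ubiquitin-conjugating enzymes 0 passed in edgeR (background 0.102% lower) and 1 was lower at an unadjusted p under 0.05 (7.14%, background 4.41%). That gene was UBE2L6, the conjugating enzyme of the ubiquitin-like ISG15, at 38.0, 27.9 and 90.3 CPM against 217.7, 398.7 and 328.1 CPM (log2 fold change -2.59, SE 0.47, edgeR adjusted p 0.111). The UBE2D and UBE2E enzymes and UBE2N, which serve many TRIM ligases, lay between -0.20 and 0.05. In DESeq2 the adjusted p was 0.00395 for PML and 2.05e-06 for UBE2L6. No other gene of these lists passed in DESeq2 (background 0.831% of 28651 genes lower).

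Of 14 genes of the sensor pathways that TRIM ligases modify, 0 passed in edgeR (background 0.102% lower), 1 passed with the block (background 0.441%) and 7 were lower at an unadjusted p under 0.05 (background 4.41%). IFIH1, which encodes the RNA sensor MDA5, stood at 62.7, 38.1 and 97.0 CPM against 258.3, 254.0 and 348.6 CPM (log2 fold change -2.12, SE 0.35), with an edgeR adjusted p of 0.0874 without the block and 0.0304 with it. DDX58, which encodes RIG-I, the substrate of TRIM25, stood at 341.4, 232.0 and 452.1 CPM against 1178.4, 463.4 and 1520.8 CPM. Its groups did not overlap, but overexpression 3 and control 2 were close, and the edgeR adjusted p was 0.385. IRF7 had the largest difference of these 14 genes (log2 fold change -2.16, SE 0.39, edgeR adjusted p 0.115), and its groups did not overlap. In DESeq2 the adjusted p was 2.05e-06 for IFIH1, 1.61e-05 for IRF7 and 0.0171 for DDX58. No other gene of the 14 passed in DESeq2 (background 0.831% of 28651 genes lower). The adaptor MAVS and the kinase TBK1 had log2 fold changes of 0.33 (SE 0.47) and 0.45 (SE 0.41). MAVS stood at 275.9 CPM in overexpression 3 and between 78.6 and 127.3 CPM elsewhere, and its value was -0.51 without that library. TBK1 stood at 37.4 CPM in control 2 and between 90.7 and 138.1 CPM elsewhere, and its value was 0.09 without that library.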

How the data were processed

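RNA was sequenced from 6 A549 libraries. FastQC, HISAT2 and the build GRCh38 appear in the notes on processing, per the submitters' processing notes. Neither the program that counted reads nor its strand setting is given in the sources used. For every gene the authors deposited a whole-number count and an FPKM value. Deposited FPKM are the counts scaled by library total and by a gene length, which was the same in every library for 100% of 12867 genes with 20 or more counts (within 0.01%), and they served only for this check. Of the 44 genes, 22 share exon bases with another gene in GENCODE 29, 12 of them on the same strand, and without a known strand setting their reads cannot be told apart.

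The test on counts was that of edgeR 4.0.16, run in R 4.3.3 (TMM factors, filterByExpr, robust quasi-likelihood, two-sided, Benjamini-Hochberg over 15631 genes, threshold 0.05). CPM use TMM-scaled totals unless said otherwise, and an SE is the log2 fold change over the square root of F. Replicates differed by a chi-square of 26.2 to 94.5 per degree of freedom, well above sampling noise. A floor of 3 counts is 0.176 to 0.224 CPM, for counting error only. The step was tested on simulated data.

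The groups share replicate numbers in the labels. Deviations from group means correlated at 0.35, 0.16 and 0.29 for the same-numbered libraries 1, 2 and 3, each over 0.1. Differently numbered libraries lay between -0.34 and 0.12, the last for overexpression 2 and control 1. With 3 libraries per group these correlations depend on each other, so they do not settle whether the numbers pair the libraries. The main fit has no block, and the fit with the block is given beside it where it changes a call.

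The read-through counts were added as an alternative chosen after seeing the data. A planned search for RING patterns in protein sequences was not made. Ratios between neighbouring genes used log2 counts with 0.5 added and an exact permutation test. Every gene at 1 CPM in 3 libraries could be named. Values per library were due for an unadjusted p under 0.05, a log2 fold change of at least 1, the TRIM22 neighbourhood, the 5 genes highest per length and TRIM24, TRIM28 and TRIM33. The members, lists and motifs were chosen with earlier results of these data known. Alternatives were the block, leaving out each library, RLE size factors, no filter, a filter of 1 CPM in all 6 libraries, DESeq2 1.42.0 and limma-voom (limma 3.58.1).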

Additional observations from a re-analysis of the deposited data

How the results depend on the processing

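The number of TRIM genes called lower was 1 (16 of all 15631 genes). It was 2 with the replicate block (69 of all 15631 genes) and 2 without the filter on low counts (72 of 28667). DESeq2 gave 8 (238 of 28651), and the fits without 1 library gave 0 to 5. The number was 0 without overexpression 1, overexpression 2, control 2 or control 3, where 1, 0, 0 and 0 of all genes were called lower. In those fits 9, 9, 10 and 8 TRIM genes were lower at an unadjusted edgeR p under 0.05, as were 457, 509, 633 and 526 of all genes. Without overexpression 3 the number called lower was 5 (144 of 15964). None was called higher under any alternative, and the number higher at an unadjusted p under 0.05 was 0, against 1 with limma-voom (317 of all 15631 genes) and 0 to 2 without 1 library (2 without overexpression 3, where 1353 of all 15964 genes were higher). The median log2 fold change of the 34 other genes was 0.01 and ran from -0.19 (without overexpression 3) to 0.10 without 1 library. The interferon-induced list ran from -1.57 to -1.14. The ratios of TRIM22 to TRIM5, TRIM6 and TRIM34 kept their sign. The replicate block changed no call other than those of TRIM38 and IFIH1 among the TRIM genes and related lists, and gave the ratios an exact p of 0.25 each. TRIM22 kept its edgeR, DESeq2 or limma-voom call in 8 of 12 alternatives. In 31 of 527 results for single genes an uncalled gene turned in sign, 16 genes in all, of which TRIM56 alone is on the interferon-induced list. The causes were not tested. The 3 genes at the lowest level per kilobase rest on as few as 8 counts in a library.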
